A study of Homo sapiens with 4 samples.

Results

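The genes described here are the heat shock proteins, their J-domain cochaperones (DNAJ), the cytosolic chaperonin and the BAG cochaperones in clusters of A549, a lung adenocarcinoma cell line of human origin. They were taken by name among protein-coding genes, as symbols beginning with HSPA, HSPB, HSPD, HSPE, HSPH or HSP90, with DNAJA, DNAJB or DNAJC and a number, with CCT or BAG and a number, or equal to TCP1. The rule found 80 of the 16371 listed genes, and 77 of them were tested, having averaged 1 FPKM or more across all 4 libraries. FPKM counts fragments per kilobase of transcript, scaled to the size of the library, and the values of all listed transcripts of a gene were summed. The tested cells carried a knockdown construct for the phosphatase gene DUSP23 (shDUSP23, 2 libraries), and the control cells carried the construct named shMock (2 libraries), with a genotype labelled as wild type. Both groups shared the cell line and the growth as clusters. The sources used here do not give the hairpin sequence, the number of clones or the meaning of SUS in the sample names, and nothing says whether the 2 libraries of a group came from separate cultures. The p-values therefore measure the spread between these libraries, which may be technical.

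Molecular chaperones bind unfolded proteins and help them reach or regain their folded state. HSP70 proteins bind short stretches of a client and release them in cycles of ATP hydrolysis, which J-domain proteins start and exchange factors such as the BAG and HSP110 proteins end. HSP90 acts later on kinases and receptors, the ring-shaped chaperonins (TRiC in the cytosol, HSP60 with HSP10 in mitochondria) enclose their clients, and small heat shock proteins hold unfolded proteins without ATP. Each compartment has its own set: the endoplasmic reticulum (ER) uses HSPA5 and HSP90B1, and mitochondria use HSPA9 and HSPD1. Heat shock factor 1 induces many of these genes through heat shock elements, inverted repeats of the letters GAA, and ER stress induces the ER set through a different element. Many tumour cells rely on high chaperone levels.

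The promoters of 5 genes are printed because their genes are at the centre of the results below and because they hold the letters of these elements. Promoter sequences came from RefSeq for build GRCh38.p14, which had an entry for 72 of the 80 genes, and the 250 bases before the annotated start were searched on both strands. Capitals mark GAANNTTC or TTCNNGAA, 2 adjoining units of a heat shock element, in the first 3 sequences. In HSPA8 overlapping pairs form 2 elements of 3 units, the nearer 43 to 55 bases before the start. In the last 2 sequences capitals mark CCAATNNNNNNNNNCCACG, the ER stress element, on either strand. All are written 5′ to 3′ along the strand of the gene.
HSPA8: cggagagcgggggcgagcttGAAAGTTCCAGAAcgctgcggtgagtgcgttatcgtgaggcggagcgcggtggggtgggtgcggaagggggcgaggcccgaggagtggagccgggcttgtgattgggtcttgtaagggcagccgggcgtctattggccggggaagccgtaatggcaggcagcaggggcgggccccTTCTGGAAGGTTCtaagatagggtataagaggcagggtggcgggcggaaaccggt
HSPB1: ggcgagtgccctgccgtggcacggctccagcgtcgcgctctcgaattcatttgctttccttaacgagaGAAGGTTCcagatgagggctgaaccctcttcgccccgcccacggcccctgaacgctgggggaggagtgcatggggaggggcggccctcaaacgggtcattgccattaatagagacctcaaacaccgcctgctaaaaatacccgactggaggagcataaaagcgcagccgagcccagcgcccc
HSPB8: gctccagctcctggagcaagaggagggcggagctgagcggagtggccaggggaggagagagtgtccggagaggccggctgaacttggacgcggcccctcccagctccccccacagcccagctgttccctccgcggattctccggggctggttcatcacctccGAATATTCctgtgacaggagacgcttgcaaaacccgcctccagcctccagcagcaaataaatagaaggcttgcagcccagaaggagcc
HSP90B1: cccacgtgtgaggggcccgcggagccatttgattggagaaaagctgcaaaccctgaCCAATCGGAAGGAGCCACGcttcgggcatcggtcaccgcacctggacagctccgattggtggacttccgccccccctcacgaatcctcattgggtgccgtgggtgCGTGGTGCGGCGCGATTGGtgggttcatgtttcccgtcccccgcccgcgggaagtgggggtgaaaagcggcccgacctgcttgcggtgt
HSPA5: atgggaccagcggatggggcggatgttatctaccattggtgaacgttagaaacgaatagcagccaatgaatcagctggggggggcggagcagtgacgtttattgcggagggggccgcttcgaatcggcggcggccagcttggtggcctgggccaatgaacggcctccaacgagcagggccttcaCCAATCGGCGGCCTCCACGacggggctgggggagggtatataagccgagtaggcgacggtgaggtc

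The windows lie at chr11:123062137-123062386 on the minus strand for HSPA8, chr7:76302423-76302672 on the plus strand for HSPB1, chr12:119178681-119178930 on the plus strand for HSPB8, chr12:103930160-103930409 on the plus strand for HSP90B1 and chr9:125241344-125241593 on the minus strand for HSPA5. A heat shock element of 3 units (GAANNTTCNNGAA or TTCNNGAANNTTC) was found in 3 of the 72 windows (4.17%), those of HSPA8, HSPA6 and DNAJB6, against 0.439% of 27305 promoters. Units in pairs were found in 13 windows (18.1%) against 11.7% of all promoters. The ER stress element was found in 2 windows (2.78%), those of HSP90B1 and HSPA5, against 0.0806% of all promoters. The annotated start lay within 100 bases of the most abundant listed transcript for 51 of the 72 genes, among them the 5 printed ones. For HSP90AA1, HSP90AB1, HSPD1 and DNAJB1 it did not, so their windows are not shown. A match is a description of letters and not evidence of a bound factor.

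DUSP23 was listed at 1.71 and 2.71 FPKM in the shDUSP23 libraries and at 30 and 35.9 FPKM in the shMock libraries, with a log2 fold change of -3.64 (SE 0.22, limma adjusted p = 3.12e-05). The steps of low values gave about 26970000 and 42300000 fragments for the shDUSP23 libraries and 21290000 and 25210000 for the shMock libraries. A single fragment in a transcript of 2000 bases was then worth between 0.0118 and 0.0235 FPKM. All 4 epithelial markers checked (EPCAM, KRT8, KRT18, CDH1) were listed, with sums of 1628 and 1707 FPKM in shDUSP23 and 2148 and 2104 FPKM in shMock. Of the markers of other cell types, 0 of 3 endothelial, 2 of 4 fibroblast and 1 of 4 leukocyte genes were listed. The fibroblast sum was 4.19 and 4.75 FPKM in shDUSP23 and 2.96 and 2.51 FPKM in shMock, and the leukocyte gene, CD14, had 0.983 and 0.995 FPKM in shDUSP23 and 4.68 and 8.0 FPKM in shMock. Mitochondrially encoded genes held 8.12% and 7.97% of the listed FPKM in shDUSP23 and 12.3% and 13.07% in shMock, and the listed FPKM summed to 438604 and 446982 in shDUSP23 against 540163 and 578361 in shMock. The part of these differences in the results below was not tested. Results are therefore repeated after rescaling the 4 libraries to 1 common sum (equal sums), which moved the median over all genes to 0.34 on the log2 scale, against 0.03 as deposited.

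Across the whole set the abundant folding machinery was lower in shDUSP23, and a small group of genes, led by DNAJB5, HSPB8, DNAJB2 and HSPB1, was higher. Of the 77 tested genes 28 fell and 12 rose in limma, with 0.05 as the limit on p after Benjamini-Hochberg adjustment. The 28 are 36.4% of the tested genes, against a background of 22.2% lower calls over all 13691 tested genes, and the 12 are 15.6%, against 23.1% higher calls. Of all tested genes 45.3% were called in either direction, so a call by itself is common here. Counts by class, compartment and list below are to be read against these shares. With equal sums 15 fell and 18 rose, against 12.3% lower and 38.4% higher over all genes (50.7% in either direction). With median-ratio rescaling, the other rescaling that was run, 30 fell and 11 rose. That rescaling called 6120 genes in either direction, against 6202 as deposited. With GC and length adjusted 25 fell and 13 rose, against 22.0% lower and 22.7% higher over all genes (44.7% in either direction). Fewer of these genes, and fewer of all tested genes, were called when either shMock library was left out. The median log2 fold change of the 77 was -0.27 as deposited and 0.04 with equal sums, and it lay below the median of all genes on both scales. In RNA from whole cultures fewer cells of a kind and less RNA per cell cannot be told apart. Together the 80 genes held 0.88% and 0.84% of the listed FPKM in shDUSP23 and 1.15% and 1.08% in shMock.

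**Figure D1:**
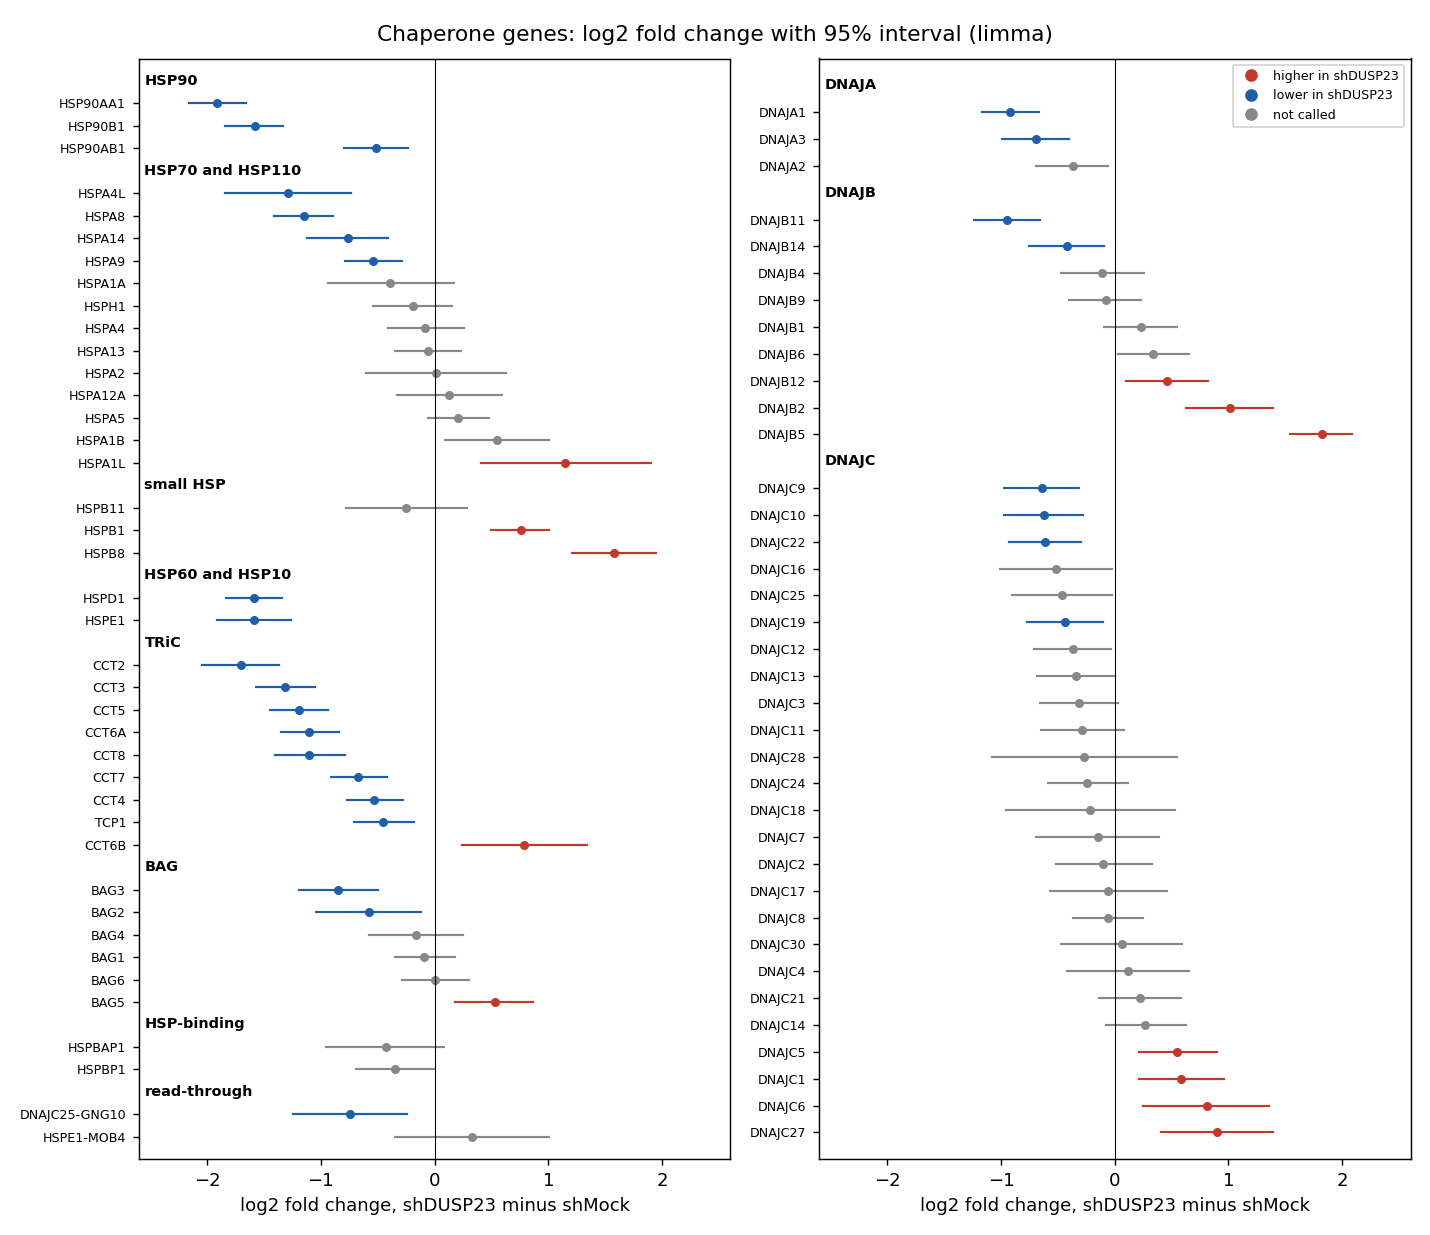
Log2 fold change (shDUSP23 minus shMock, horizontal axis) of the 77 tested genes by class, with 95% intervals from limma; red points were called higher in shDUSP23, blue points lower, grey points were not called. The HSP90, HSP60 and HSP10 genes and the TRiC subunits other than CCT6B lie left of 0, whereas DNAJB5 (1.82) and HSPB8 (1.58) lie farthest to the right.

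All 3 HSP90 genes fell. HSP90AA1, the inducible cytosolic HSP90, had 149 and 143 FPKM in shDUSP23 and 548 and 556 FPKM in shMock. It was 3.77 times lower by the group means (log2 fold change -1.91, SE 0.11, limma adjusted p = 3.12e-05), and the libraries within each group differed by a few percent of their mean. HSP90B1, the ER form also called GRP94, had 143 and 153 FPKM in shDUSP23 and 429 and 461 FPKM in shMock (log2 fold change -1.58, SE 0.11, adjusted p = 4.74e-05). HSP90AB1, the constitutive cytosolic form, had 228 and 213 FPKM in shDUSP23 and 343 and 290.2 FPKM in shMock, a smaller change (log2 fold change -0.51, SE 0.12, adjusted p = 0.0105). The order of the cytosolic pair differed between the groups: HSP90AA1 stood at 0.654 and 0.671 of HSP90AB1 in shDUSP23, against 1.60 and 1.92 times HSP90AB1 in shMock. Such a ratio within a library does not depend on how the library is scaled, and with 2 libraries a group an exact two-sided permutation test cannot give a p below 0.333. HSP90AB1 was no longer called with equal sums (adjusted p = 0.285), without a variance trend (0.0519) and without shDUSP23 replicate 2 (0.0702). HSP90AA1 (ENSG00000080824) was listed on chromosome 14 with 5 transcripts, of which HSP90AA1-201 carried 97.9% and 96.1% of its FPKM in shDUSP23 and 98.5% and 98.1% in shMock.

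**Figure D2:**
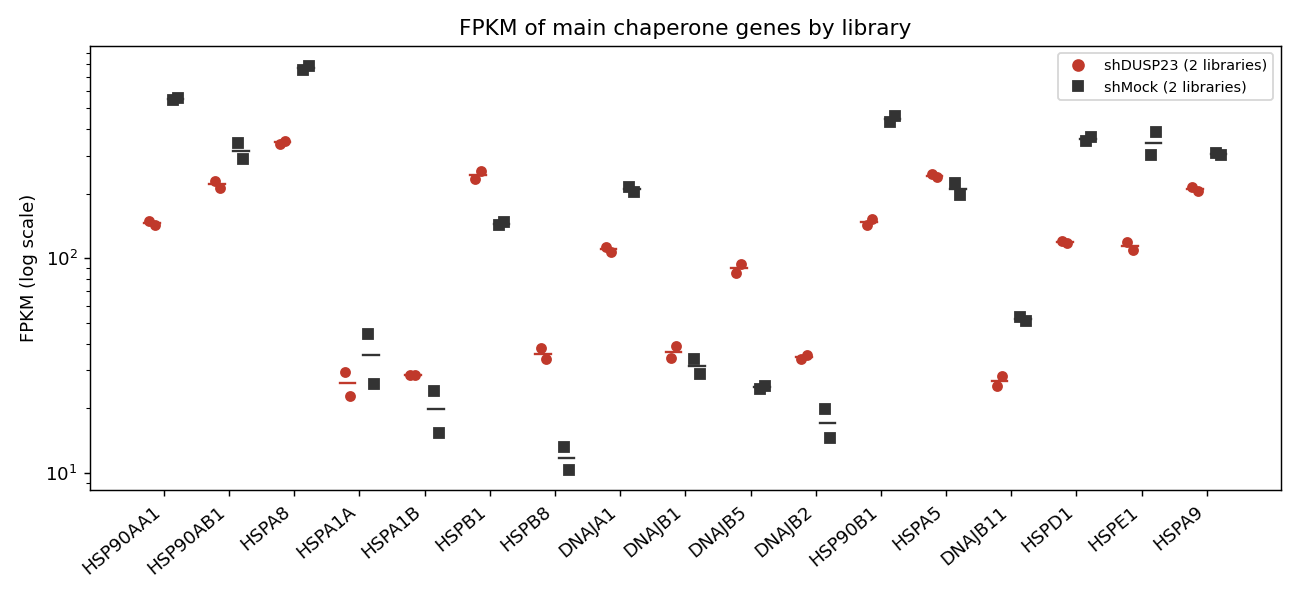
FPKM (log axis) of 17 chaperone genes in each library, shDUSP23 as red circles and shMock as black squares, with the group means as short lines. The groups stand apart for HSP90AA1, HSPA8, HSPD1 and HSP90B1, lower in shDUSP23, and for HSPB1, HSPB8, DNAJB5 and DNAJB2, higher in shDUSP23, while HSPA1A overlaps.

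Within HSP70 the constitutive cytosolic gene fell, and the heat-inducible pair HSPA1A and HSPA1B did not pass. HSPA8, which encodes the constitutive HSP70 of the cytosol and was the most abundant gene of the set, had 339 and 353 FPKM in shDUSP23 and 756 and 784 FPKM in shMock (log2 fold change -1.15, SE 0.11, limma adjusted p = 0.000166). The inducible gene HSPA1A had 29.6 and 22.7 FPKM in shDUSP23 and 44.6 and 26.0 FPKM in shMock, and the groups overlapped (adjusted p = 0.221, 95% interval of the log2 fold change -0.94 to 0.17). Its near-identical neighbour HSPA1B had 28.5 and 28.5 FPKM in shDUSP23 and 24.2 and 15.3 FPKM in shMock, short of the threshold (adjusted p = 0.0531) and past it with equal sums (0.00685). With GC and length adjusted the log2 fold change was 0.26 for HSPA1B (adjusted p = 0.309) and -0.69 for HSPA1A (0.0607). With a replicate block HSPA1A was called lower (limma adjusted p = 0.0436, or 0.0036 with GC and length adjusted as well). HSPA1B was called higher with the replicate block (0.0192) and with a mean of at least 5 FPKM (0.0243). The calls of this pair thus depended on the processing. How the authors' quantification divided reads between these copies is uncertain, so each value holds only with that limit. HSPA1L, the third gene of this cluster on chromosome 6 and a testis-enriched form, rose at a low level, with 2.48 and 1.84 FPKM in shDUSP23 and 0.817 and 0.574 FPKM in shMock (log2 fold change 1.15, SE 0.33, adjusted p = 0.0207). That call rested on about 170 and 198 fragments in shDUSP23 and 44 and 37 in shMock, and it was lost without shMock replicate 1 (0.0803) or shMock replicate 2 (0.153). HSPA6, which is silent in most unstressed cells and induced by heat, was below the filter with 0.692 and 1.85 FPKM in shDUSP23 and 0.200 and 0.0841 FPKM in shMock, or about 44 and 186 fragments against 10 and 5. HSPA12B, a divergent member, was also below the filter, between 0.303 and 0.629 FPKM in the 4 libraries.

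The HSP110 branch, which exchanges nucleotide on HSP70, was uneven. HSPA4L had 5.05 and 3.10 FPKM in shDUSP23 and 11.2 and 9.65 FPKM in shMock, and it fell by 1.29 on the log2 scale (SE 0.24, limma adjusted p = 0.00327). Its more abundant relatives HSPA4, with 102 and 80.2 FPKM in shDUSP23 and 103 and 87.9 FPKM in shMock, and HSPH1, with 55.6 and 48.0 FPKM in shDUSP23 and 66.7 and 52.6 FPKM in shMock, overlapped between the groups. The 95% interval of their log2 fold change was -0.41 to 0.26 for HSPA4 and -0.54 to 0.15 for HSPH1. HSPA14, a partner of J proteins at the ribosome, fell, with 11.2 and 10.1 FPKM in shDUSP23 and 17.3 and 19.6 FPKM in shMock (log2 fold change -0.76, adjusted p = 0.00476). Its call was lost with equal sums (0.0541) and without shMock replicate 2 (0.0655). HSPA2, HSPA12A and HSPA13 did not pass, with log2 fold changes of 0.01, 0.13 and -0.06. Over the 13 tested HSP70 and HSP110 genes 4 fell (30.8%, against 22.2% over all genes) and 1 rose (7.69%, against 23.1%). Their median log2 fold change was -0.08 as deposited, against 0.03 for all genes. With equal sums it was 0.26, against 0.34 for all genes.

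Of the 3 tested genes with HSPB symbols 2 rose. HSPB1, the HSP27 gene, whose product is a target of p38 MAP kinase signalling and holds unfolded proteins and actin, had 235 and 255 FPKM in shDUSP23 and 142 and 147 FPKM in shMock (log2 fold change 0.76, SE 0.11, limma adjusted p = 0.00104). HSPB8, which works with BAG3 in the selective autophagy of misfolded proteins, had 38.0 and 33.9 FPKM in shDUSP23 and 13.2 and 10.3 FPKM in shMock, 3.06 times higher (log2 fold change 1.58, SE 0.16, adjusted p = 0.000194). In both genes every shDUSP23 library lay above every shMock library, and in 75.5% of all tested genes the groups likewise did not overlap. Both kept their calls in each of the alternatives that could test them. HSPB11, which despite its name is a component of intraflagellar transport, had 17.4 and 30.6 FPKM in shDUSP23 and 26.7 and 28.3 FPKM in shMock and overlapped. The level of HSPB1 relative to HSPA8 was 0.691 and 0.723 in shDUSP23 and 0.189 and 0.187 in shMock. CRYAB, the alpha-B crystallin gene and also a small heat shock protein, is outside the naming rule, and it had 2.59 and 1.47 FPKM in shDUSP23 and 0.848 and 1.56 FPKM in shMock (log2 fold change 0.56, adjusted p = 0.233).

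The mitochondrial chaperonin fell as a pair. HSPD1, which forms the HSP60 barrel, had 120.4 and 118 FPKM in shDUSP23 and 352 and 366 FPKM in shMock (log2 fold change -1.59, SE 0.11, limma adjusted p = 4.12e-05). HSPE1, its HSP10 lid, had 119 and 109 FPKM in shDUSP23 and 302 and 388 FPKM in shMock (log2 fold change -1.59, SE 0.14, adjusted p = 0.000122). These genes lie head to head on chromosome 2, with the 5′ ends of their most abundant transcripts at 197499840 on the minus strand for HSPD1 and 197500379 on the plus strand for HSPE1, 539 bases apart. The ratio of HSPD1 to HSPE1 stayed near equality, at 1.01 and 1.09 in shDUSP23 and 1.17 and 0.942 in shMock. HSPE1-MOB4, a read-through of HSPE1 into its neighbour, had 10.2 and 9.39 FPKM in shDUSP23 and 5.28 and 11.2 FPKM in shMock. It did not pass, and with GC and length adjusted it was called higher (log2 fold change 0.90, limma adjusted p = 0.03). Its reads cannot be told apart from those of HSPE1 in the shared exons.

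Of the other 5 tested mitochondrial genes 3 fell. HSPA9, the mitochondrial HSP70 also called mortalin, had 215 and 205 FPKM in shDUSP23 and 309 and 303 FPKM in shMock (log2 fold change -0.54, SE 0.11, limma adjusted p = 0.00442). DNAJA3, its J-domain partner, had 22.0 and 22.7 FPKM in shDUSP23 and 34.9 and 38.0 FPKM in shMock (log2 fold change -0.69, SE 0.13, adjusted p = 0.00304). Both lost their calls with equal sums, at adjusted p = 0.151 for HSPA9 and 0.0548 for DNAJA3. DNAJC19, a subunit of the import motor, had 14.6 and 13.7 FPKM in shDUSP23 and 18.3 and 20.4 FPKM in shMock (log2 fold change -0.44, adjusted p = 0.0383). Its direction turned with GC and length adjusted (0.06, adjusted p = 0.733), and the call was also lost with equal sums (0.585), without a variance trend (0.0667) and without shDUSP23 replicate 2 (0.0928), shMock replicate 1 (0.0956) or shMock replicate 2 (0.23). DNAJC11 and DNAJC30 did not pass. DNAJC11 was called lower with GC and length adjusted (-0.56, limma adjusted p = 0.0251) and not with equal sums (0.866). DNAJC15 was below the filter at 0.705 and 0.701 FPKM in shDUSP23 and 1.01 and 1.47 FPKM in shMock. Of the 7 tested mitochondrial genes 5 fell (71.4%, against 22.2% over all genes). Their median log2 fold change was -0.54, or -0.21 with equal sums, where HSPD1 and HSPE1 were the 2 calls that remained. Among 10 other mitochondrial folding and protease genes 3 fell and 7 did not pass, and with equal sums 2 fell and 1 rose. TRAP1, the mitochondrial HSP90, had 12.8 and 11.1 FPKM in shDUSP23 and 35.0 and 35.8 FPKM in shMock (log2 fold change -1.53, SE 0.14, adjusted p = 0.000133), and GRPEL1, the exchange factor of HSPA9, had 12.9 and 13.2 FPKM in shDUSP23 and 24.6 and 28.4 FPKM in shMock (log2 fold change -1.0, adjusted p = 0.000973). The third was PAM16.

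TRiC, the cytosolic chaperonin that folds actin and tubulin, is built from 8 different subunits, and the genes of all 8 fell. CCT2 had 63.8 and 49.4 FPKM in shDUSP23 and 173 and 196 FPKM in shMock (log2 fold change -1.70, SE 0.15, limma adjusted p = 0.000107). CCT3 had 89.4 and 82.8 FPKM in shDUSP23 and 206 and 223 FPKM in shMock (log2 fold change -1.31, SE 0.11), and CCT5 had 92.5 and 97.2 FPKM in shDUSP23 and 210.5 and 225 FPKM in shMock (log2 fold change -1.19, SE 0.11). The extent differed among subunits of a complex that holds them in equal number. CCT6A and CCT8 fell by 1.10 each, CCT7 by 0.67, CCT4 by 0.53 and TCP1, the first subunit, by 0.45 on the log2 scale. TCP1 had 63.6 and 70.3 FPKM in shDUSP23 and 91.2 and 91.3 FPKM in shMock, a gap larger than the spread within either group. The 8 subunits averaged 80.5 and 78.2 FPKM in shDUSP23 and 157 and 166 FPKM in shMock, and the highest subunit stood 1.68 and 2.13 times above the lowest in shDUSP23 and 2.31 and 2.46 times in shMock. With equal sums CCT4 (adjusted p = 0.201) and TCP1 (0.482) lost their calls. TCP1 also lost its call with GC and length adjusted (0.143), without a variance trend (0.0599) and without shDUSP23 replicate 1 (0.0678), shMock replicate 1 (0.0611) or shMock replicate 2 (0.0677).

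**Figure D3:**
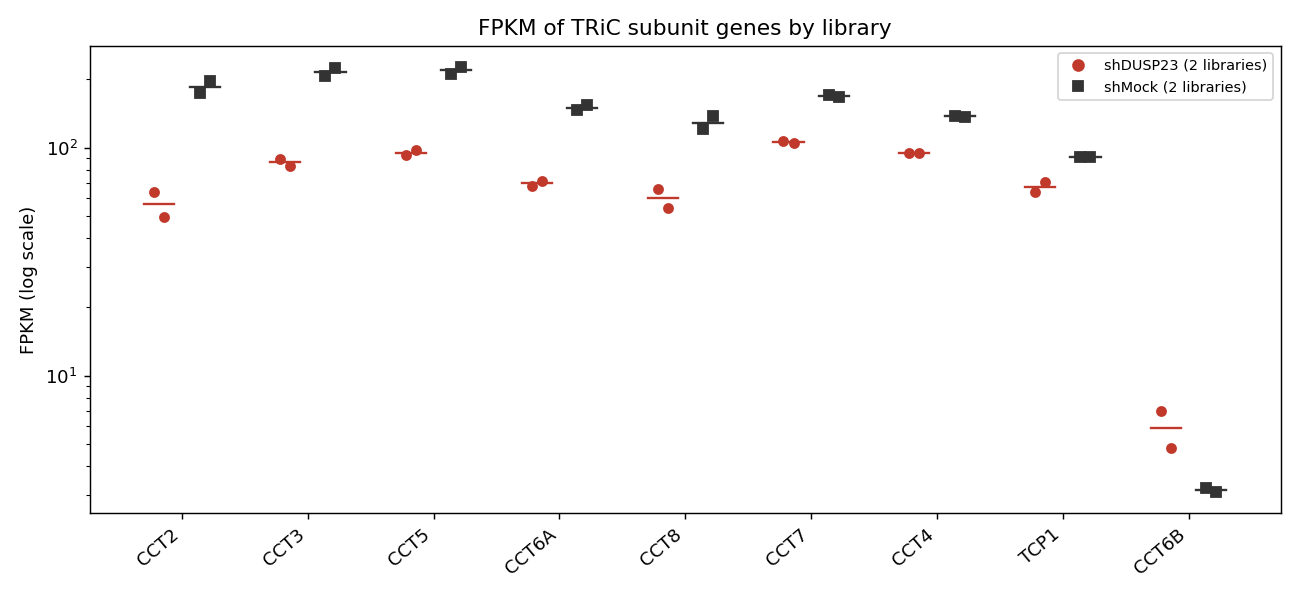
FPKM (log axis) of the TRiC subunit genes in each library, shDUSP23 as red circles and shMock as black squares, with group means as short lines. The 8 general subunits are lower in both shDUSP23 libraries than in both shMock libraries, whereas CCT6B lies between 3.10 and 7.01 FPKM and is higher in shDUSP23.

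CCT6B, a testis-enriched alternative to CCT6A, went the other way at a low level, with 7.01 and 4.82 FPKM in shDUSP23 and 3.23 and 3.10 FPKM in shMock (log2 fold change 0.79, SE 0.24, limma adjusted p = 0.0273). The call was lost without shDUSP23 replicate 1 (0.103), shMock replicate 1 (0.114) or shMock replicate 2 (0.145). Among 9 partners of TRiC, the prefoldin subunits and phosducin-like cofactors that bring or release its clients, 5 fell and 1 rose (3 and 2 with equal sums). TXNDC9, a regulator of TRiC cycling, had 22.8 and 20.6 FPKM in shDUSP23 and 42.2 and 45.5 FPKM in shMock (log2 fold change -1.0, adjusted p = 0.000595). PDCL3 had 15.4 and 17.5 FPKM in shDUSP23 and 29.6 and 33.9 FPKM in shMock (log2 fold change -0.93, adjusted p = 0.00137). The prefoldin genes PFDN5, PFDN6 and VBP1 were the other 3 that fell, and PFDN2 was the 1 that rose, with 92.0 and 79.5 FPKM in shDUSP23 and 62.9 and 70.3 FPKM in shMock (adjusted p = 0.047). VBP1 lost its call with equal sums (limma adjusted p = 0.145) and with GC and length adjusted (0.274), and PFDN6 with equal sums (0.0729).

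In the ER the HSP90 member fell and the HSP70 member did not. HSPA5, the ER HSP70 also known as BiP, had 246 and 239 FPKM in shDUSP23 and 223 and 197 FPKM in shMock (log2 fold change 0.21, 95% interval -0.06 to 0.48, limma adjusted p = 0.172), and with equal sums it was called higher (0.54, adjusted p = 0.0048). HSPA5 stood at 1.71 and 1.57 times HSP90B1 in shDUSP23, against 0.520 and 0.427 times in shMock, so the order of the main ER chaperones differed between the groups. Both genes carry the ER stress element printed above, which 2 of the 72 promoters held. DNAJB11, an HSPA5 cochaperone, went with HSP90B1 and had 25.3 and 28.2 FPKM in shDUSP23 and 53.2 and 51.0 FPKM in shMock (log2 fold change -0.95, SE 0.13, adjusted p = 0.000629). DNAJC10, a J protein with disulfide reductase activity, fell with 34.3 and 26.2 FPKM in shDUSP23 and 47.4 and 45.4 FPKM in shMock (log2 fold change -0.62, adjusted p = 0.0107), a call lost with equal sums (0.167) and without shMock replicate 1 (0.0755) or shMock replicate 2 (0.0623). DNAJB9 and DNAJC3, which regulate the ER stress sensors IRE1 and PERK, did not pass. DNAJB9 had 35.0 and 32.8 FPKM in shDUSP23 and 32.7 and 39.3 FPKM in shMock, and DNAJC3 had 11.3 and 12.4 FPKM in shDUSP23 and 15.0 and 14.7 FPKM in shMock.

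Among the other ER J proteins DNAJC1 and DNAJB12 rose, DNAJB14 fell, and DNAJC14, DNAJC16, DNAJC18 and DNAJC25 did not pass, with log2 fold changes of 0.27, -0.52, -0.22 and -0.46. DNAJC1 had 22.0 and 26.6 FPKM in shDUSP23 and 17.7 and 14.4 FPKM in shMock (log2 fold change 0.58, adjusted p = 0.0205), and DNAJB12 had 17.6 and 21.2 FPKM in shDUSP23 and 14.6 and 13.3 FPKM in shMock (log2 fold change 0.46, adjusted p = 0.0424). DNAJB14, the paralogue of DNAJB12, had 12.8 and 13.3 FPKM in shDUSP23 and 17.2 and 18.1 FPKM in shMock (log2 fold change -0.42, adjusted p = 0.0415). These limma calls were lost in 3 of 15 alternatives for DNAJC1, 8 for DNAJB12 and 9 for DNAJB14. Without shMock replicate 2 their adjusted p was 0.16 for DNAJC1, 0.218 for DNAJB12 and 0.206 for DNAJB14. Without shMock replicate 1 it was 0.109 for DNAJB12 and 0.136 for DNAJB14, and without shDUSP23 replicate 2 it was 0.0724 for DNAJC1, 0.163 for DNAJB12 and 0.0577 for DNAJB14. DNAJB14 also lost its call without shDUSP23 replicate 1 (0.0856). It turned to 0.07 (adjusted p = 0.762) when its protein-coding transcripts were summed alone. In DNAJB14 the difference lay in transcripts annotated for nonsense-mediated decay, while its coding transcript DNAJB14-205 had 8.85 and 8.01 FPKM in shDUSP23 and 8.77 and 7.26 FPKM in shMock. Of the 14 ER genes 4 fell (28.6%, against 22.2% over all genes) and 2 rose (14.3%, against 23.1%). Their median log2 fold change was -0.26 as deposited and 0.05 with equal sums. Among 9 other genes of ER folding and the ER stress response 5 fell and 2 rose (4 and 2 with equal sums). HYOU1, the ER HSP110, had 10.5 and 10.4 FPKM in shDUSP23 and 26.5 and 28.1 FPKM in shMock (log2 fold change -1.34, SE 0.14, adjusted p = 0.000213), and MANF, a secreted ER stress protein, had 36.1 and 33.2 FPKM in shDUSP23 and 84.0 and 88.8 FPKM in shMock (log2 fold change -1.31, adjusted p = 0.000128). HERPUD1, a membrane protein of ER-associated degradation, was among the 2 that rose, with 45.8 and 55.6 FPKM in shDUSP23 and 25.3 and 29.2 FPKM in shMock (adjusted p = 0.00178), and the other was SIL1, an exchange factor of HSPA5.

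Among the class A and class B J proteins of the cytosol and nucleus DNAJA1 fell, DNAJB2 and DNAJB5 rose, and DNAJA2, DNAJB1, DNAJB4 and DNAJB6 did not pass. DNAJA1, the main class A partner of HSPA8, fell together with it and had 113 and 107 FPKM in shDUSP23 and 214 and 204 FPKM in shMock (log2 fold change -0.92, SE 0.11, limma adjusted p = 0.000391). The ratio of HSPA8 to DNAJA1 was 3.0 and 3.31 in shDUSP23 and 3.53 and 3.85 in shMock. DNAJA2 had 35.4 and 29.2 FPKM in shDUSP23 and 42.0 and 41.6 FPKM in shMock and stopped short of the threshold (adjusted p = 0.0534). It was called lower with median-ratio rescaling (limma adjusted p = 0.0324), a mean of at least 5 FPKM (0.0388) and a replicate block (0.0355). With equal sums (0.836) or GC and length adjusted (0.376) it was not called. DNAJB1, the class B partner that drives HSP70 in disaggregation, had 34.4 and 39.1 FPKM in shDUSP23 and 33.8 and 28.9 FPKM in shMock (log2 fold change 0.23, 95% interval -0.09 to 0.55, adjusted p = 0.211) and was called higher with equal sums (0.0135). The ratio of HSPA8 to DNAJB1 was therefore 9.87 and 9.04 in shDUSP23 and 22.4 and 27.2 in shMock. DNAJB6, a suppressor of protein aggregation, had 69.4 and 77.8 FPKM in shDUSP23 and 63.8 and 52.5 FPKM in shMock. Neither it (adjusted p = 0.0701) nor DNAJB4 passed, and DNAJB6 did with equal sums (adjusted p = 0.0041) and with GC and length adjusted (0.0108).

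DNAJB5 and DNAJB2 rose and kept their calls in all 15 alternatives. DNAJB5, a class B protein of the nucleus and cytosol linked in mouse heart muscle to histone deacetylase control, had 85.6 and 93.5 FPKM in shDUSP23 and 24.7 and 25.4 FPKM in shMock, 3.58 times higher (log2 fold change 1.82, SE 0.12, limma adjusted p = 3.74e-05). It was the largest increase on the log2 scale among the 77 tested genes. Its most abundant transcript, DNAJB5-201, had 62.1 and 62.3 FPKM in shDUSP23 and 21.7 and 20.5 FPKM in shMock. Another coding transcript, DNAJB5-204, was close to absent in shMock, with 11.8 and 18.3 FPKM in shDUSP23 and 0.467 and 0.394 FPKM in shMock, so its share of the gene was 13.8% and 19.5% in shDUSP23 and 1.89% and 1.55% in shMock. DNAJB2, which binds ubiquitin and sends misfolded clients to the proteasome, had 34.1 and 35.4 FPKM in shDUSP23 and 19.8 and 14.5 FPKM in shMock (log2 fold change 1.01, SE 0.17, adjusted p = 0.00169). In both genes the groups did not overlap, which was so in 75.5% of all tested genes. Of the 9 DNAJB genes 3 rose (33.3%, against 23.1% over all genes) and 2 fell (22.2%, against 22.2%). The median log2 fold change of the class was 0.23.

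Most class C proteins, which share the J domain and little else, did not pass. Of 25 tested genes 4 rose and 4 fell, 16% each way, against 23.1% higher and 22.2% lower calls over all tested genes. The median log2 fold change of the class was -0.22 as deposited, 0.10 with equal sums and 0.02 with GC and length adjusted. The median of all genes on these scales was 0.03, 0.34 and 0.02. DNAJC27, a small GTPase with a J domain, had 6.71 and 6.39 FPKM in shDUSP23 and 3.67 and 2.90 FPKM in shMock (log2 fold change 0.90, SE 0.21, limma adjusted p = 0.00948). DNAJC6, auxilin, which uncoats clathrin vesicles, had 4.21 and 3.71 FPKM in shDUSP23 and 2.19 and 1.90 FPKM in shMock (adjusted p = 0.0263), and DNAJC5, the vesicle protein CSP alpha, had 17.9 and 20.5 FPKM in shDUSP23 and 12.4 and 13.4 FPKM in shMock (adjusted p = 0.0176). DNAJC5, however, had a log2 fold change of 0.11 with GC and length adjusted (adjusted p = 0.539), against 0.55 before it. Leaving out shMock replicate 2 ended the calls of DNAJC27 (0.0937), DNAJC6 (0.165) and DNAJC5 (0.074). Leaving out shMock replicate 1 ended those of DNAJC6 (0.0956) and DNAJC5 (0.111), as did leaving out shDUSP23 replicate 1 for DNAJC6 (0.0542) and shDUSP23 replicate 2 for DNAJC5 (0.0601). The genes that fell were DNAJC10 and DNAJC19, given above, DNAJC9 and DNAJC22. DNAJC9, a histone chaperone of dividing cells, had 13.3 and 15.0 FPKM in shDUSP23 and 21.8 and 22.8 FPKM in shMock (log2 fold change -0.64, adjusted p = 0.00751), and DNAJC22 had 17.7 and 17.0 FPKM in shDUSP23 and 25.4 and 28.2 FPKM in shMock (log2 fold change -0.61, adjusted p = 0.00723). Both lost their calls with equal sums (0.129 and 0.142) and without shMock replicate 2 (log2 fold changes -0.61 and -0.54). DNAJC22 also lost its call with protein-coding transcripts alone (log2 fold change -0.47, limma adjusted p = 0.124). Most of its FPKM lay in DNAJC22-205, annotated for nonsense-mediated decay, with 13.2 and 12.9 FPKM in shDUSP23 and 19.4 and 21.2 FPKM in shMock. DNAJC8, a splicing-associated J protein and the most abundant class C gene, had 45.1 and 37.2 FPKM in shDUSP23 and 42.2 and 43.0 FPKM in shMock and overlapped.

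DNAJC7, which binds HSP70 and HSP90 through its tetratricopeptide repeats, did not pass as a gene, with 46.0 and 30.9 FPKM in shDUSP23 and 52.1 and 33.6 FPKM in shMock. Its transcripts differed in their shares: DNAJC7-205, annotated for nonsense-mediated decay, held 38.1% and 27.4% of the gene in shDUSP23 and 5.62% and 13% in shMock. Summed over protein-coding transcripts alone DNAJC7 was called lower (log2 fold change -0.83, limma adjusted p = 0.0375). Its most abundant coding transcript overlapped between the groups, with 16.6 and 11.2 FPKM in shDUSP23 and 15.3 and 22.6 FPKM in shMock. DNAJC7-223 was listed at 14.4 FPKM in shMock replicate 1 and at 0 in the other 3 libraries, so that library carried much of the coding sum. Over all 80 genes coding transcripts held 87% and 86.9% of the FPKM in shDUSP23 and 89.6% and 88.8% in shMock, and transcripts marked for nonsense-mediated decay held 2.82% and 3.08% in shDUSP23 and 2% and 2.02% in shMock. DNAJC25-GNG10, a read-through gene, was called lower (adjusted p = 0.0252) with 2.89 and 3.12 FPKM in shDUSP23 and 5.84 and 4.90 FPKM in shMock, while DNAJC25 was not (0.0809), and the division of their reads is uncertain. The read-through call was lost with equal sums (0.154), with GC and length adjusted (0.127) and without shMock replicate 1 (0.19) or shMock replicate 2 (0.0971).

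Of the 6 BAG genes, which release clients from HSP70, 2 fell (33.3%, against 22.2% over all genes) and 1 rose (16.7%, against 23.1%). BAG3, the stress-induced partner of HSPB8, had 9.85 and 9.20 FPKM in shDUSP23 and 18 and 17.1 FPKM in shMock (log2 fold change -0.85, SE 0.15, limma adjusted p = 0.0025). It thus moved opposite to HSPB8, and both calls held in every alternative run. BAG2, an inhibitor of the ubiquitin ligase CHIP, fell at a low level, with 3.89 and 3.86 FPKM in shDUSP23 and 6.26 and 5.84 FPKM in shMock (adjusted p = 0.0433), and lost its call when any of the 4 libraries was left out (adjusted p up to 0.213) and with equal sums (0.325). BAG5 rose, with 21.0 and 19.4 FPKM in shDUSP23 and 15.0 and 12.8 FPKM in shMock (log2 fold change 0.53, adjusted p = 0.022), and lost its call without shDUSP23 replicate 1 (0.0539), shMock replicate 1 (0.0505) or shMock replicate 2 (0.162). BAG1, the most abundant of the family, had 64.1 and 65.9 FPKM in shDUSP23 and 66.2 and 71.9 FPKM in shMock, with a 95% interval of -0.35 to 0.18 on the log2 scale. BAG4 and BAG6 did not pass. HSPBP1, another exchange factor, had 17.2 and 19.6 FPKM in shDUSP23 and 21.5 and 25.6 FPKM in shMock (adjusted p = 0.0941), and HSPBAP1, which binds HSPB1, had 6.38 and 4.75 FPKM in shDUSP23 and 8.76 and 6.58 FPKM in shMock (adjusted p = 0.15). Neither passed.

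Among 13 other genes, cochaperones of HSP90 and HSP70 together with CRYAB, 5 fell and 8 did not pass. STIP1, the adaptor that hands clients from HSP70 to HSP90, had 34.6 and 36.7 FPKM in shDUSP23 and 96.9 and 83.6 FPKM in shMock (log2 fold change -1.33, SE 0.13, limma adjusted p = 0.000149). CHORDC1, a heat-inducible HSP90 partner, had 26.3 and 26.9 FPKM in shDUSP23 and 70.4 and 61.4 FPKM in shMock (log2 fold change -1.29, SE 0.13, adjusted p = 0.000168). The other 3 were AHSA1, PTGES3 and STUB1, with log2 fold changes of -0.57, -0.44 and -0.57. These 3 lost their calls with equal sums (limma adjusted p = 0.153, 0.509 and 0.226), where 2 of the 13 fell and 1 rose. With GC and length adjusted 6 of the 13 fell, but PTGES3 did not pass (log2 fold change -0.06, adjusted p = 0.68). None of HSF1, HSF2, HSF4 and HSBP1 was called by limma as deposited, and HSF1 alone had an unadjusted p under 0.05 (0.0414). With equal sums, which moved the median of all genes to 0.34, HSF1 and HSF4 were called higher. With GC and length adjusted neither was called, at log2 fold changes of 0.07 for HSF1 (limma adjusted p = 0.656) and 0.01 for HSF4 (0.976). HSF1, the master regulator of the heat shock response, had 33.4 and 41.2 FPKM in shDUSP23 and 30.3 and 27.9 FPKM in shMock (log2 fold change 0.35, adjusted p = 0.0803), and HSBP1, which binds it, had 99.7 and 83.4 FPKM in shDUSP23 and 100 and 123 FPKM in shMock (adjusted p = 0.144). HSF2 and HSF4 did not pass either.

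Most genes of the set at 100 FPKM or more fell, and below 100 FPKM direction did not follow level. Of the 16 tested genes that averaged 100 FPKM or more 14 fell and 1, HSPB1, rose, with a median log2 fold change of -1.13, and HSPA5 was the 1 not called. Among all tested genes at this level 52.9% fell and 21.8% rose, with a median of -0.41. Of the 27 genes between 20 and 100 FPKM 6 fell and 4 rose, at a median of -0.10 against -0.07 for all genes at that level. Of the 34 genes below 20 FPKM 8 fell and 7 rose, at a median of -0.19 against 0.09 for all genes. As deposited, abundant genes were thus lower in shDUSP23 in general, and these counts are descriptions without a test of the set. The counts by level were not repeated with equal sums, which moved the median of all genes from 0.03 to 0.34. In the cytosol and nucleus 17 of 43 tested genes fell (39.5%, against 22.2% over all genes) and 7 rose (16.3%, against 23.1%). With equal sums 11 fell and 11 rose, where 12.3% fell and 38.4% rose over all genes.

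**Figure D4:**
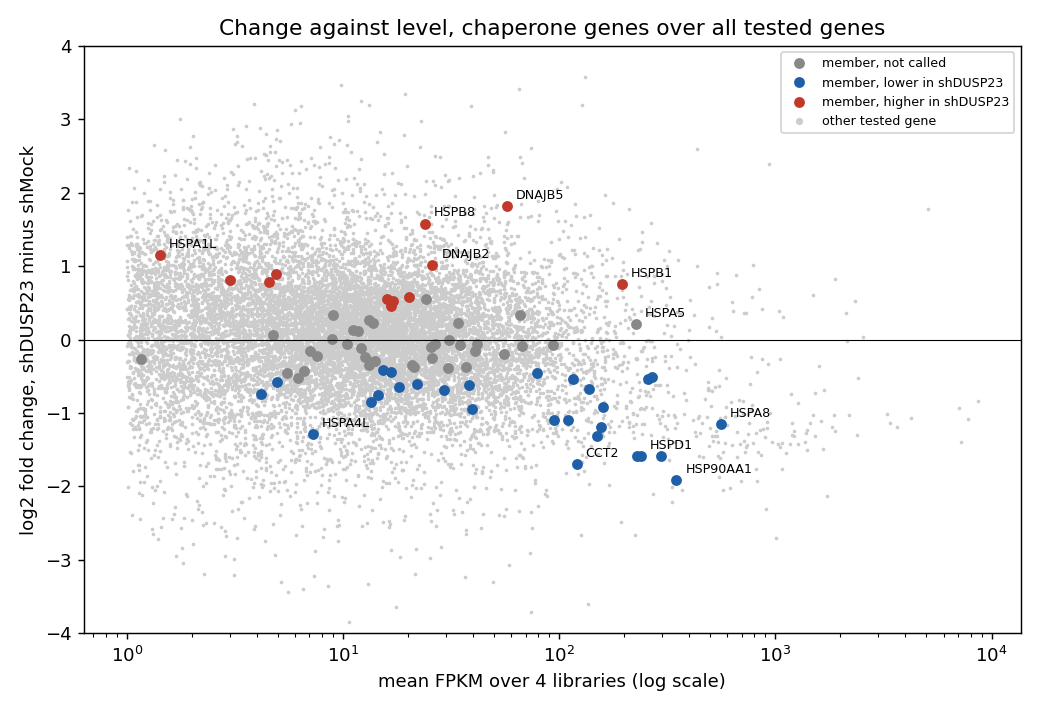
Log2 fold change (shDUSP23 minus shMock, vertical axis) against the mean FPKM over 4 libraries (log axis) for all tested genes in light grey and the chaperone genes in colour, red called higher, blue called lower and dark grey not called; 3 other genes lie outside the axis. The abundant chaperone genes lie below 0 except HSPB1 and HSPA5, and DNAJB5, HSPB8 and DNAJB2 stand out above 0 at intermediate levels.

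Calls that were kept in every alternative numbered 15 of the 28 lower (53.6%) and 4 of the 12 higher ones (33.3%), against 41.2% of the lower and 42.5% of the higher calls over all genes. The 15 were HSP90AA1, HSP90B1, HSPA8, HSPA4L, HSPD1, HSPE1, DNAJA1, DNAJB11, BAG3, CCT2, CCT3, CCT5, CCT6A, CCT7 and CCT8. The 4 were DNAJB5, HSPB8, DNAJB2 and HSPB1. Groups did not overlap in 59 of the 77 tested genes (76.6%), against 75.5% of all tested genes, so separation of the 2 groups is no mark of these genes.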

How the data were processed

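RNA sequencing of 4 libraries, 2 of shDUSP23 and 2 of shMock A549 cells, was deposited by the authors as FPKM per Ensembl transcript (56389 transcripts of 16371 genes), with no counts. STAR 2.7.1a, DESeq2 1.32.0 and GRCh38 are named in the submitters' processing notes, without their roles. The sources used here do not give the quantifier, annotation release, strandedness or filters. FPKM were summed per gene ID. GENCODE release 29 gave the length and GC content of 93.6% of transcripts. Library totals were the smallest at which low values of single-transcript genes came out as whole fragments (within 0.1, values up to 50 fragments). Between 82.6% and 85.4% of these were whole, and sums over several transcripts were not treated as counts.

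Genes averaging 1 FPKM or more entered limma 3.58.1 in R 4.3.3 as log2(FPKM + 0.5) (eBayes with an intensity trend), shDUSP23 minus shMock, two-sided, with Benjamini-Hochberg adjustment over 13691 genes and a threshold of 0.05. On this scale the change of low genes is understated. The genes, classes and lists were chosen with earlier results of these data known, and the read-through class and the level bins were added after the table was seen. Full values were given for DUSP23, for the 3 smallest p, the most abundant gene and genes called against the majority in each class, and for the 2 smallest p in each list; others were named after their values were seen. Alternatives were pseudocounts of 0.1 and 1 FPKM, no filter, a mean of at least 5 FPKM, equal sums, median-ratio rescaling, correction for GC content and length (splines with 5 degrees of freedom), eBayes without a trend, protein-coding transcripts alone, a replicate block with and without that correction, and leaving out each library. Without a library the lone sample of a group is assumed to vary like the other group. Tables were made in Python 3.11.15 with pandas 2.3.3 and numpy 2.4.6, and figures with matplotlib 3.10.9.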

Additional observations from a re-analysis of the deposited data

How the results depend on the processing

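DUSP23 kept its direction and call in all 15 alternatives, with log2 fold changes from -3.91 to -3.34, and from -3.91 to -3.37 when a library was left out. Leaving out a library gave between 3258 and 6391 changed genes overall against 6202, the fewest without shMock replicate 2 (3258) and shMock replicate 1 (3935). It gave between 4 and 9 members called higher against 12 and between 20 and 28 called lower against 28. By compartment it gave 0 to 2 higher and 2 to 4 lower genes in the ER, 4 to 7 higher and 14 to 16 lower genes in the cytosol and nucleus, and 4 to 5 lower genes in mitochondria. With equal sums 15 members were called lower, and 4 ER genes were higher and 2 lower, 11 cytosolic and nuclear genes were higher and 11 lower, and 2 mitochondrial genes were lower. The ER count of higher genes was 1 with no filter, with median-ratio rescaling and after the GC and length correction with or without the replicate block, and 0 without a trend. DNAJB14 turned to 0.07 with protein-coding transcripts alone. DNAJC19 turned to 0.06 after the GC and length correction, with or without the replicate block. The cause of these shifts was not tested. The labels do not say that the replicate number pairs libraries, so the numbers were not taken as pairs. The deposited labels carry the same suffixes in both groups, and their meaning is not given. Same-numbered libraries hardly deviated together (r = 0.05 over 13691 genes, which are not independent), which cannot decide whether they are pairs. The replicate block ended 0 of the 40 member calls and added 3, and it called 6707 genes changed against 6202. At the depth of these libraries HSPA6 rested on 5 to 186 fragments, and no fold change is given for it.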
